A study of Mus musculus with 16 samples.

Results

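The 10 genes described here read, write or remove N6-methyladenosine (m6A), a methyl mark on adenosines inside messenger RNA. They are the readers Ythdf1, Ythdf2, Ythdf3, Ythdc1 and Ythdc2, the writers Mettl3, Mettl14 and Wtap, and the erasers Fto and Alkbh5. They were taken by symbol from 24062 genes with deposited read counts, and each of the 10 was found and passed the filter on low counts that 15592 genes passed. The list was drawn up because Ythdf3 was lower in mice that drank nicotine; it was chosen by the read counts of Ythdf3 in mice with and without nicotine, so every comparison of nicotine with no nicotine is given below as a description, without a test. The comparisons of ethanol with no ethanol, and the nicotine by ethanol interaction, were tested. For Ythdf3 the comparisons with ethanol and the nicotine by ethanol interaction contain WW and NW values that chose the gene, so they too are read as descriptions.

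RNA was sequenced from whole brain, cerebellum included, of 16 female C57BL/6J mice, 4 in each group, killed on postnatal day 45. Every mouse had 3 bottles for 22 h a day over 6 days and through the 4 drinking days that followed. In the WW (water, water) and Water-Ethanol groups these held tap water, and in the NW (nicotine, water) and NE (nicotine, ethanol) groups 200 µg/ml nicotine in tap water. On the 4 drinking days a single tube replaced the bottles in the remaining hours, for 2 h on the first 3 days and 4 h on the last; it held 20% v/v ethanol for Water-Ethanol and NE and water for WW and NW. Each mouse set its own intake, no genotype beyond the strain is given, and each library was 1 mouse, so the p-values measure the spread between mice.

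In the nucleus a methyltransferase complex places m6A, with Mettl3 as the catalytic subunit, Mettl14 as its RNA-binding partner and Wtap as the subunit that holds the complex in nuclear speckles. Proteins with a YTH domain bind the mark: the Ythdf proteins act mainly in the cytoplasm on decay and translation of the marked RNA, Ythdc1 acts in the nucleus on splicing and export, and Ythdc2 is an RNA helicase known for its role in meiosis. Fto and Alkbh5 are oxygenases that remove methyl groups, and m6A in the brain has been tied to neuronal development, synaptic function and memory. None of these measurements is of the mark itself: the data are RNA levels of the genes.

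The libraries held 27100352 to 32880979 counted reads, with a median of 29448284. Markers of neurons, astrocytes, oligodendrocytes, cerebellar granule cells and Purkinje cells were all measured, as whole brain should give. In 3 NW libraries Rn45s, a ribosomal RNA precursor, took 1.37% (NW 7), 0.729% (NW 8) and 3.90% (NW 10) of the counted reads, against 0.274% to 0.617% in the other 13. The summed level of 5 cerebellar granule cell markers was 250.1 CPM (reads scaled to library size) in WW 21 and 323.7 in NW 10, the lowest of their groups, where the highest mouse had 800.5 in WW and 812.4 in NW. The summed level of 5 olfactory bulb markers was 80.4 to 83.6 in WW, above NW (47.8 to 75.8) and NE (44.3 to 78.7), and it spread from 39.7 to 87.4 in Water-Ethanol. Lists of 5 endothelial and 5 meningeal markers were also lower in every NE mouse (229 to 245 and 97.2 to 104) than in every WW mouse (246 to 258 and 104.5 to 193.5). The part of these differences in the results below was not tested, and in bulk tissue fewer cells of a type cannot be told apart from less RNA per cell.

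The 3 Ythdf genes are paralogs, and they differ in base composition, along which the comparison of NW with WW below shows a trend. Their coding sequences were identical at 67.6% (Ythdf1 and Ythdf2), 69.5% (Ythdf1 and Ythdf3) and 69.3% (Ythdf2 and Ythdf3) of aligned bases, and the longest identical stretch in any pair was 24 bases. A 120-base stretch of each, from the GENCODE M21 transcripts on GRCm38, shows how they part; it is the ungapped stretch with the most bases shared by all 3. The sequences run 5′ to 3′ on the coding strand, and capitals mark the 32 positions at which the 3 genes are not all the same. The stretches are bases 1128 to 1247 of the Ythdf1 coding sequence, 1191 to 1310 of Ythdf2 and 1209 to 1328 of Ythdf3.
Ythdf1: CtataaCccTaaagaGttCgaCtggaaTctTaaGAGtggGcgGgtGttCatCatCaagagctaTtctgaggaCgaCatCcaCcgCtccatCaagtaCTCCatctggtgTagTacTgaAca
Ythdf2: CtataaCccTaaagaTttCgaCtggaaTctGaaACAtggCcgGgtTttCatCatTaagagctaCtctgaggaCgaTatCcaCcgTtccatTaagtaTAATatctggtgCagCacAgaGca
Ythdf3: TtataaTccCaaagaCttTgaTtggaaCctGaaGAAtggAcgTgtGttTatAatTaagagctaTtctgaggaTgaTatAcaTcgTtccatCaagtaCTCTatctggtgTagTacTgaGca
The GC content of these stretches was 46.7% in Ythdf1, 42.5% in Ythdf2 and 36.7% in Ythdf3. The same order held at the last position of codons over the whole coding sequence, with 54.6% in Ythdf1, 42.5% in Ythdf2 and 33.8% in Ythdf3. Ythdf3 also has 3059 bases after its stop codon with a GC content of 32.0%, and its whole transcript, at 38.4%, was richer in GC than only 1.94% of the tested genes. No stretch of 50 bases of Ythdf3 or Ythdf1 was found in the transcripts of another gene.

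The other genes spread over the range of composition. Ythdf1 lies on chromosome 2 (180904377 to 180920936, minus strand), Ythdf2 on chromosome 4 (132184916 to 132212256, minus) and Ythdf3 on chromosome 3 (16183183 to 16217037, plus). Transcript GC content was 39.6% in Wtap (chromosome 17, 12966799 to 12992539, minus), 41.8% in Ythdc1 (chromosome 5, 86804490 to 86836657, plus) and 42.0% in Ythdc2 (chromosome 18). It was 46.1% in Ythdf2, 47.0% in Mettl14 (chromosome 3, 123368295 to 123385990, minus), 49.1% in Ythdf1, 50.2% in Mettl3 (chromosome 14, 52294842 to 52305124, minus) and 52.1% in Fto (chromosome 8, 91313525 to 91668433, plus), with Alkbh5 (chromosome 11, 60537683 to 60558512, plus) between Ythdf1 and Mettl3, where the median of tested genes was 50.5%. Some counts may be shared with near-identical copies: 20.1% of the 50-base stretches of Ythdc1 occur in Gm43055, 8.55% of those of Ythdf2 in Gm6823 or Gm8401, and 9.02% of those of Wtap in Gm14292, Gm7381 or Gm9068. Exons of Mettl3 overlap 252 bases of Tox4 on the opposite strand, and the labels name a library kit without strand where the study's methods describe a stranded one. If the counting did not use strand, their reads there cannot be told apart.

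Levels between genes were compared per transcript length, in FPKM, which divides fragments by transcript length and library size. The eraser Fto had the highest level, with a mean of 62.8 FPKM (SD 2.26 over 16 mice). The nuclear reader Ythdc1 followed at 27.2, then Ythdf1 at 24.7, Wtap at 23.3, Ythdf3 at 20.7, Alkbh5 at 16.6, Ythdf2 at 12.6, Mettl14 at 10.2, Mettl3 at 9.94 and Ythdc2 at 8.33 FPKM. The place of Wtap depends on the length assigned to it, which was 6558 bases with the counts and 3187 in the matched transcript. The length behind its FPKM was not given, and a longer one would lower its level and place. The ranges over mice were apart between Fto (59.0 to 66.3) and Ythdc1 (23.1 to 29.3), and between Alkbh5 (14.7 to 17.8) and Ythdf2 (10.9 to 13.6). The ranges of all other neighbours overlapped. Within every mouse, though, Ythdc1 was above Ythdf1, Ythdf1 above Wtap, Ythdf2 above Mettl14 and Mettl3 above Ythdc2. The order differed between mice for Wtap and Ythdf3, for Ythdf3 and Alkbh5, and for the subunits Mettl14 and Mettl3, which were at nearly the same level.

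**Figure D1:**
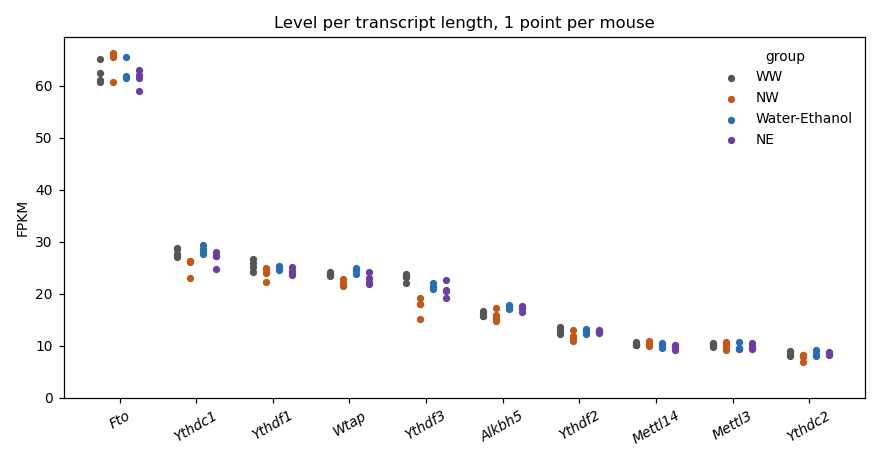
FPKM of each m6A gene, 1 point per mouse, coloured by group, in order of the mean. Fto stood apart at 59.0 to 66.3 FPKM, and the NW points of Ythdf3 lie below its other points.

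Ythdf3, the cytoplasmic reader that works with both other Ythdf proteins, was lowest in the mice given nicotine without ethanol. Its normalized counts (reads scaled to a common library size) were 3383, 3517, 3241 and 3373 in WW and 2182, 2645, 2682 and 2823 in NW. They were 3100, 3086, 3188 and 3038 in Water-Ethanol and 3264, 2838, 3020 and 3029 in NE. Every NW mouse was below every mouse of the other 3 groups, every Water-Ethanol mouse was below every WW mouse, and Water-Ethanol and NE overlapped. NW 7 was the lowest of the 16.

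**Figure D2:**
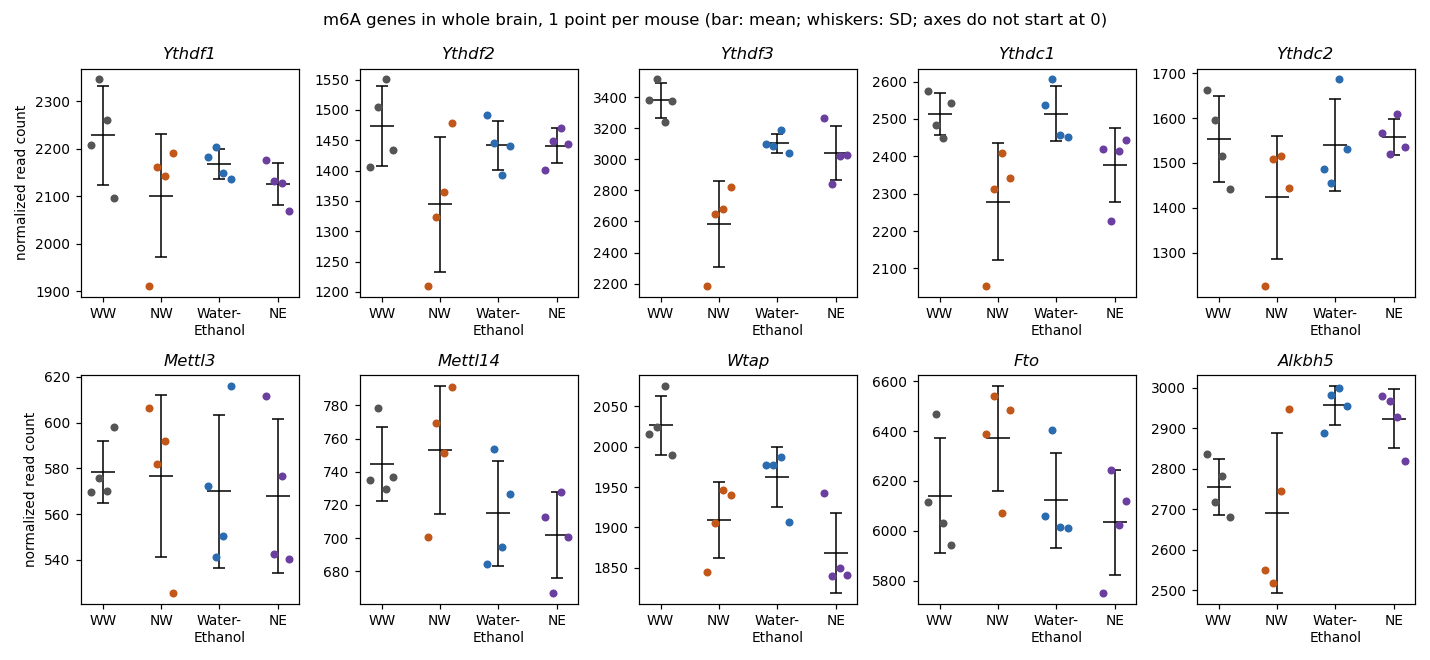
Normalized read counts of the 10 m6A genes by group, 1 point per mouse, with the mean (bar) and SD (whiskers) of 4 mice. The NW mice are lowest for Ythdf3 (2182 to 2823), the Water-Ethanol mice lie above the WW mice for Alkbh5, and the axes do not start at 0.

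The group means of Ythdf3 were 3379 ± 113 (SD, n = 4) in WW, 2583 ± 278 in NW, 3038 ± 175 in NE and 3103 ± 62.5 in Water-Ethanol. These are the values that chose the list, and nothing is read from them beyond their size: NW was 23.5% below WW, a log2 fold change of -0.39 (SE 0.07). Without NW 7 it was -0.32, without NW 10 -0.41 and without WW 21 -0.39, and with NW 7, NW 8 and NW 10, the libraries rich in Rn45s, left out it was -0.26 and rested on 1 NW mouse. Among mice that drank ethanol the nicotine difference was small, with a log2 fold change of -0.03 (SE 0.04) for NE against Water-Ethanol. The study reports higher ethanol intake and blood ethanol in NE than in Water-Ethanol on the last day. This contrast can therefore differ in ethanol dose as well as in nicotine, and the part of dose was not tested. NE against WW gave -0.15 (SE 0.05), and nicotine pooled over ethanol -0.21 (SE 0.04).

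The difference of Ythdf3 between NW and WW came with a trend over GC content in the same contrast. When the tested genes with a matched transcript were put in 20 bins of GC content, the median log2 fold change of NW against WW was -0.15 in the lowest bin (31.2% to 40.2% GC, 765 genes), -0.11 in the next bin, 0.01 in the tenth bin and 0.06 in the highest. Ythdf3 is in the lowest bin, 0.23 below its median on the log2 scale, and 4.53% of the bin's genes were lower still. In the contrast of NE with Water-Ethanol the same bin had a median of -0.04, and Ythdf3, at -0.03, lay next to it. The trend was not particular to NW. In NE against WW the median was -0.09 in the lowest bin and 0.08 in the highest. In Water-Ethanol against WW it was -0.06 and 0.05. By mouse, the median deviation of the lowest bin's genes from their 16-mouse means was -0.21 (log2) in NW 7, -0.05 in NW 10, -0.04 in NW 8 and -0.01 in NW 11. It ran from 0.04 to 0.11 in the WW mice and from 0.01 to 0.04 in the Water-Ethanol mice. In NE it was -0.05 in NE 3, -0.02 in NE 4, 0.01 in NE 5 and 0.02 in NE 2. NW 7 was the lowest library both for Ythdf3 and for genes of low GC content as a class.

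**Figure D3:**
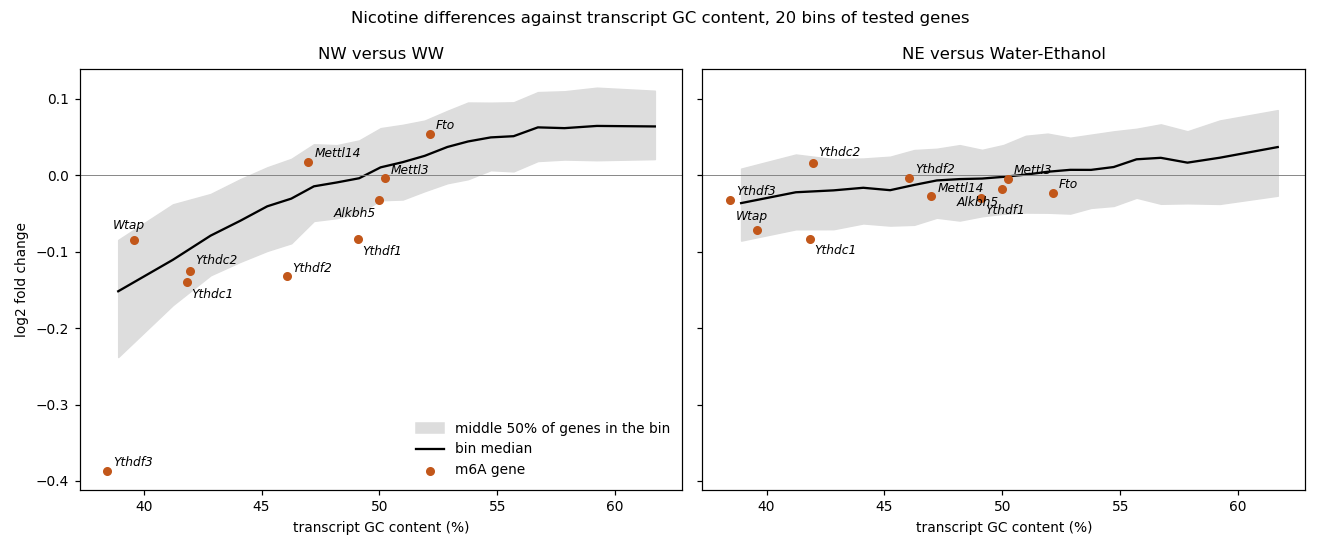
Log2 fold change against transcript GC content for NW over WW (left) and NE over Water-Ethanol (right): the line is the median and the grey band the middle 50% of genes in each of 20 bins, and points are the m6A genes. The NW over WW line climbs from -0.15 to 0.06, and Ythdf3 at -0.39 lies below it.

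A per-mouse offset that removes the trend over GC content took away part of the Ythdf3 difference. With it the normalized counts of Ythdf3 were 3183, 3261, 3098 and 3255 in WW and 2509, 2697, 2756 and 2860 in NW. NW still lay below WW in every mouse, with a log2 fold change of -0.24 (SE 0.05) in place of -0.39. NE against WW went from -0.15 to -0.05 (SE 0.04), and nicotine pooled over ethanol from -0.21 to -0.12 (SE 0.03). With an offset for GC content and transcript length together NW against WW was -0.23.

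**Figure D4:**
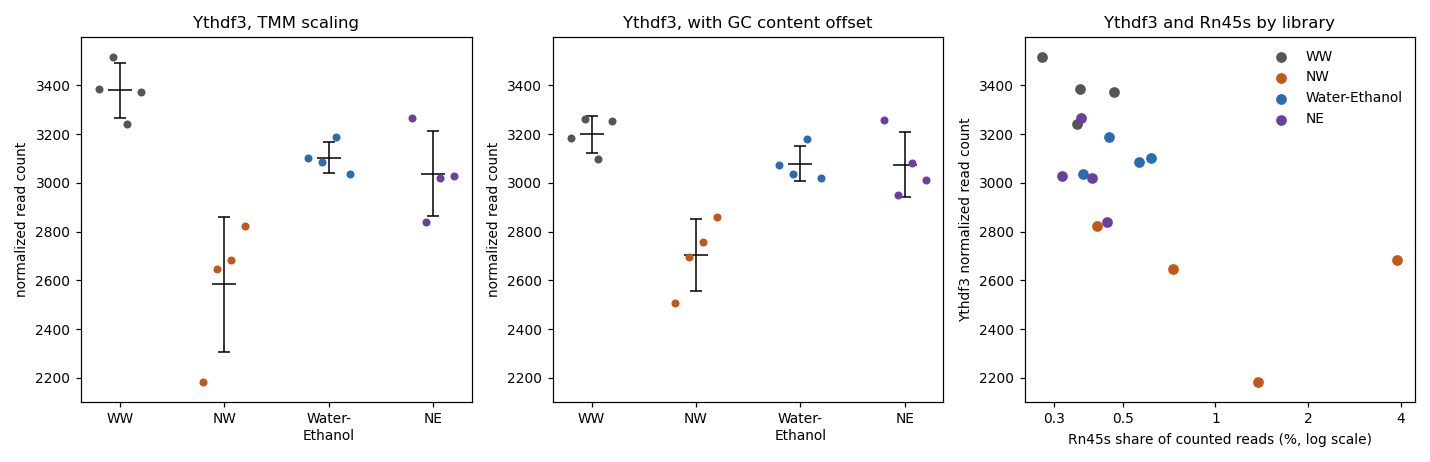
Normalized Ythdf3 read counts by group with the usual library scaling (left) and with the GC content offset (middle), 1 point per mouse with mean and SD, and against the Rn45s share of each library on a log axis (right). NW spans 2182 to 2823 before and 2509 to 2860 after the offset; the 3 libraries above 0.7% Rn45s are all NW.

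The other members differed less between NW and WW. The median over the 10 genes was -0.08 on the log2 scale, against 0.01 for all tested genes, and 8 of the 10 were negative, against 46.4% of all genes. Ythdc1 had -0.14, with NW at 2052, 2312, 2409 and 2342 normalized counts and WW at 2575, 2484, 2450 and 2543. Wtap had -0.08, with NW at 1845 to 1946 and WW at 1989 to 2075. Ythdf3, Ythdc1 and Wtap were the members whose NW mice all lay below the WW mice, which 4.25% of all tested genes did; the rule that drew up the list used this contrast, so the count says nothing about the group. With the GC content offset Ythdc1 moved to -0.05 and Wtap to 0.05, both with overlapping groups, and Ythdc2 moved from -0.13 to -0.04. The GC content of Wtap is that of a matched transcript of 3187 bases, where the length with its counts was 6558. Its offset may therefore not fit all the sequence that was counted.

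The other Ythdf readers stayed below zero with the GC content offset, but their differences were smaller without some NW libraries and larger without others. Ythdf2 had a log2 fold change of -0.13 (SE 0.06) between NW and WW and -0.10 with the offset, and Ythdf1 had -0.08 (SE 0.05) and -0.09. NW 7 was the lowest mouse for both (1209 and 1910 normalized counts), and the groups overlapped. Without NW 7 Ythdf2 was -0.086 and Ythdf1 -0.042, and without NW 7, NW 8 and NW 10 they were 0.003 and -0.025. Without NW 10 alone they were -0.148 and -0.101, and without NW 11 alone -0.181 and -0.104. The writers Mettl3 (-0.004) and Mettl14 (0.02) and the eraser Alkbh5 (-0.03) were within 1 SE of zero, and Fto was 0.05 (SE 0.04). With the offset 7 of the 10 were negative, against 50.4% of all genes, and the median was -0.04. In NE against Water-Ethanol 9 of the 10 were negative, against 50.55% of all genes. The median was -0.02, against -0.001 for all genes. The offset left 8 of the 10 negative, against 49.98% of all genes. The lowest without the offset was Ythdc1 at -0.08. Its NE mice (2228 to 2443) lay below its Water-Ethanol mice (2453 to 2607), as 1.55% of all tested genes did. With the GC content offset these groups overlapped, and without NE 3 the log2 fold change was -0.055.

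The tested question was whether these genes differ with ethanol, and Alkbh5, a nuclear demethylase of m6A, was the member that passed. Its normalized counts were 2836, 2718, 2781 and 2680 in WW and 2889, 2981, 2999 and 2955 in Water-Ethanol. They were 2551, 2519, 2746 and 2947 in NW and 2979, 2966, 2927 and 2819 in NE. Every Water-Ethanol mouse was above every WW mouse, as for 5.13% of tested genes, while NW and NE overlapped through NW 11. Pooled over nicotine, Alkbh5 was 7.98% higher with ethanol (log2 fold change 0.11, SE 0.03, adjusted p = 0.0498 by the quasi-likelihood test of edgeR with Benjamini-Hochberg adjustment over all genes). It was 1 of 10 members called, where 4.5% of all tested genes were called and 2.94% were called higher. The exact two-sided permutation test of Alkbh5 alone, with mice permuted within nicotine groups, gave p = 0.00245. It was 1 of 10 such tests, in which Mettl14 had an exact permutation p of 0.0184 and Wtap 0.0237, both lower with ethanol, and the other members had p from 0.138 to 0.761 by exact permutation; these p are not corrected for the number of tests.

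The call on Alkbh5 was narrow. Leaving out 1 mouse gave log2 fold changes of 0.10 to 0.13 and adjusted p of 0.011 to 0.102 in edgeR, and the call was lost for 12 of the 16 mice; it was kept without WW 18, NW 10, NW 11 or NE 5. Without WW 21, the WW library low in cerebellar markers, the adjusted p was 0.0761 in edgeR. With NW 7, NW 8 and NW 10 left out the log2 fold change was 0.05 with an adjusted p of 0.434 in edgeR, so the difference with NW 11 as the only NW mouse was smaller. Alkbh5 lies near the middle of GC content, the median of its bin was -0.01 in this contrast, and with the GC content offset it had 0.12 and an adjusted p of 0.0359 in edgeR, where 5.79% of all tested genes were called. In the separate comparisons it was 0.11 (SE 0.03, adjusted p = 0.13 in edgeR) for Water-Ethanol against WW and 0.12 (SE 0.05, adjusted p = 0.411 in edgeR) for NE against NW.

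**Figure D5:**
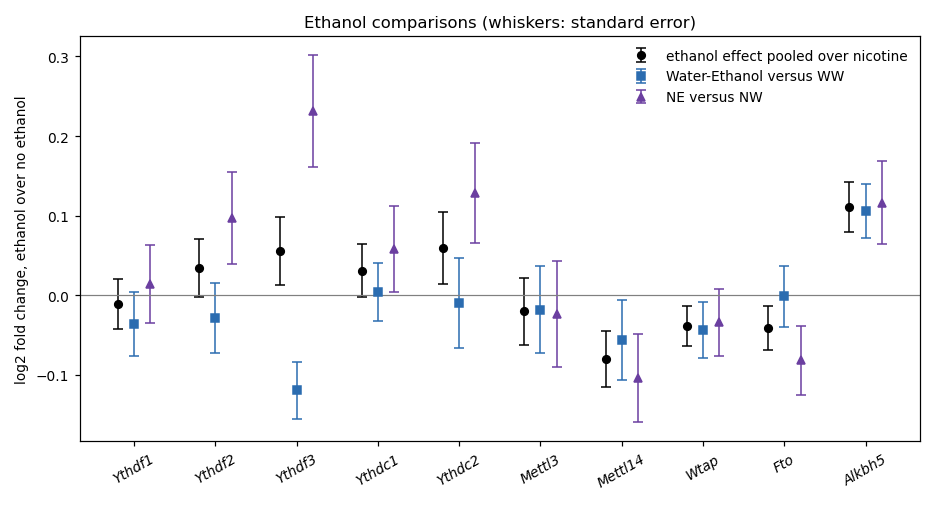
Log2 fold change of ethanol over no ethanol for each m6A gene, pooled over nicotine (black), Water-Ethanol over WW (blue) and NE over NW (purple), with whiskers of 1 standard error. Alkbh5 is at 0.11, 0.11 and 0.12, and Ythdf3 at 0.06, -0.12 and 0.23.

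No other member was called with ethanol. Among the writers, Mettl14 was 5.43% lower (log2 fold change -0.08, SE 0.04, adjusted p = 0.183 in edgeR). Its counts were 735, 778, 729 and 737 in WW and 684, 754, 695 and 727 in Water-Ethanol, and 701, 770, 752 and 791 in NW and 713, 667, 728 and 700 in NE, so the groups overlapped on both sides. Wtap was -0.04 (SE 0.02, adjusted p = 0.355 in edgeR) and Mettl3 -0.02 (SE 0.04, adjusted p = 0.803 in edgeR). All Water-Ethanol mice were below all WW mice for Wtap (1907 to 1987 against 1989 to 2075). This separation was gone with the GC content offset, which for Wtap rests on a transcript shorter than the length with its counts. The log2 fold change of Wtap was positive when FPKM were used in place of counts, at 0.05 with either pseudocount.

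The eraser Fto was -0.04 (SE 0.03, adjusted p = 0.388 in edgeR). Of the readers, Ythdf1 was -0.01, Ythdf2 0.03, Ythdf3 0.06, Ythdc1 0.03 and Ythdc2 0.06 on the log2 scale, with standard errors of 0.03 to 0.05 and adjusted p from 0.451 to 0.862 in edgeR. Without a correction for the number of genes, Alkbh5 and Mettl14 had p under 0.05, 2 of 10, where 22.9% of all tested genes did. The median of the 10 log2 fold changes was 0.01, against 0.002 for all genes, with 5 above zero and 5 below.

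In the comparisons of single groups 0 of the 10 members were called. For Water-Ethanol against WW 0.457% of tested genes were called, and for NE against NW 0.0% were. Without correction 2 members had p under 0.05 in edgeR in each, Ythdf3 and Alkbh5 both times, where 19.3% and 11.9% of all genes did. Nothing is read from Ythdf3 being among them, since the comparisons hold WW or NW values that chose it. DESeq2 likewise called 0 members in both comparisons. The members' medians were -0.02 for Water-Ethanol against WW and 0.04 for NE against NW, against 0.002 for all genes in each. In the first 8 of the 10 were negative and in the second 4, where 49.4% and 49.3% of all genes were. With the GC content offset 6 and 4 of the 10 were negative, where 48.9% and 49.2% of all genes were.

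For Ythdf3 the log2 fold changes with ethanol had opposite signs in these comparisons, and neither was called. A gene picked for NW below WW is pushed toward these signs, so its p cannot decide the question. The values are a description. In mice without nicotine it was 7.97% lower with ethanol (log2 fold change -0.12, SE 0.04, adjusted p = 0.113 in edgeR), and in mice with nicotine 17.4% higher (0.23, SE 0.07, adjusted p = 0.268 in edgeR). Groups apart in one direction were not rare: 5.68% of tested genes had every Water-Ethanol mouse below every WW mouse, Ythdf3 and Wtap among them, and 4.41% had every NE mouse above every NW mouse, Ythdf3 and Ythdc2 among them. The WW and NW mice enter these comparisons and also chose the gene, so nothing is read from Ythdf3 being in both counts. The nicotine by ethanol interaction, which holds the same WW and NW values, was 0.36 on the log2 scale (SE 0.09). Its adjusted p was 0.577 in edgeR and 0.126 in DESeq2. Without NW 7, NW 8 and NW 10 NE against NW was 0.11, with an adjusted p of 0.719 in edgeR. With the GC content offset Water-Ethanol against WW was -0.05 with overlapping groups, NE against NW was 0.18 with groups apart, and the interaction was 0.24 (adjusted p = 0.761 in edgeR).

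In the interaction 0 of 10 members were called by edgeR or DESeq2, where 0.0% of all tested genes were called by edgeR. At an unadjusted p under 0.05 there was 1 member, Ythdf3, where 6.76% of all genes were; the interaction holds the NW and WW values that chose Ythdf3, so nothing is read from this. Alkbh5 had 0.02 (SE 0.06), so its ethanol differences with and without nicotine were not told apart.

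A wider set of genes around m6A was tested gene by gene, not as a set, with ethanol and in the interaction. It held 25 genes: partners of the writer complex, other RNA methyltransferases, enzymes that supply or clear the methyl donor cycle, and other proteins that bind m6A or act on marked RNA. Of these 23 had enough reads, the exceptions being Igf2bp1 and Igf2bp3, with means of 1.57 and 1.99 normalized counts without ethanol and 3.20 and 2.12 with it. No gene of this set was called in the pooled ethanol effect, in Water-Ethanol against WW, in NE against NW or in the interaction, while 5, 6, 1 and 3 of the 23 had an unadjusted p under 0.05 in edgeR, where 22.9%, 19.3%, 11.9% and 6.76% of all tested genes did. The largest pooled ethanol differences were in Igf2bp2, an RNA-binding protein that stabilises marked RNA (0.38, SE 0.16, adjusted p = 0.159 in edgeR), Rbm15, which brings the writer complex to RNA (0.15, SE 0.06, adjusted p = 0.151 in edgeR), and Mettl4, a methyltransferase of small nuclear RNA (-0.12, SE 0.05, adjusted p = 0.146 in edgeR). Igf2bp2 had few reads, with means of 47.2 normalized counts with ethanol and 36.4 without it. The median of the 23 was -0.01 in the pooled ethanol effect. In NW against WW, as a description, their median was -0.02, against 0.01 for all genes, with 13 of the 23 negative, against 46.4% of all genes. With the GC content offset 12 of the 23 were negative, against 50.4% of all genes.

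The genes whose pattern over the 16 mice was most like that of Ythdf3 were on neither list of m6A genes. Likeness was the root mean square difference in log2 normalized counts, each gene centred on its own mean. The 5 nearest were AI504432 (0.0478), Cnot6l, a deadenylase subunit (0.0486), Rap2c (0.0501), Ptbp3 (0.052) and Sh3bgrl (0.053). Their transcripts had GC contents of 34.1%, 37.6%, 36.5%, 38.9% and 36.6%, all within the lowest bin, where Ythdf3 is too. Their lowest group mean was that of NW, which the choice fixed; for Cnot6l it was 1930 and the remaining group means ran from 2361 to 2499. The nearest member of the list was Ythdc1, at place 340 of 15591 genes (0.105), and Fto was the farthest, at place 6418.

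The letters GGACT, a common form of the sequence in which m6A is placed, were counted in the sense strand of the transcripts. They occurred in 81.1% of all 23358 transcripts, at 1.10 sites per kilobase, and 36 times in the 10 members, at 0.904 sites per kilobase. Alkbh5 held 10, Wtap 6, Ythdf2 5, Mettl3 4, and Mettl14, Fto and Ythdc2 3 each, while Ythdf1 and Ythdf3 held 1 each and Ythdc1 held 0. For Wtap they were counted in the matched transcript of 3187 bases, where the length with its counts was 6558. A match of letters is no measured site of methylation.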

How the data were processed

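Whole-brain libraries of 16 mice (single reads; the labels name a kit without strand, the study's methods a stranded one) were mapped by the authors to mm10; per the labels their notes name Trimmomatic (0.32), TopHat2, Cufflinks and Cuffdiff. The program behind the counts is not given in the sources used here. Both tables were used: the deposited read counts per gene, not normalized, and the deposited FPKM, which the authors scaled to transcript length and library size. Groups were taken from the labels. The members, gene lists and tests were chosen with earlier results of these data known. Counts were scaled by TMM, filtered with filterByExpr and tested with the quasi-likelihood test of edgeR (4.0.16; R 4.3.3), with calls at an adjusted p under 0.05; pooled effects and the interaction used 16 mice, other comparisons the 2 groups compared. Adjusted p came from all genes tested. The script was tested on simulated data with 200 changed genes. Transcripts of GENCODE M21 were matched to 23363 genes, taking the coding transcript nearest in length to the table's; 98.1% of tested genes had a GC content. The offset was a per-mouse loess (span 0.5) of log counts on GC content. For Wtap the transcript has 3187 bases and the table's length is 6558. Paralogs were aligned with mafft (7.526). DESeq2 (1.42.0), limma (3.58.1) on log2(FPKM + 1 or 0.1), other scaling and filters, and leaving out mice were tried as alternatives. All members, the 3 wider-list genes with the largest pooled ethanol differences, any called wider-list gene and the 5 genes most like Ythdf3 are named. In every mouse 2 haemoglobin genes and Obp1a are listed at 0.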

Additional observations from a re-analysis of the deposited data

Results flagged for a closer look

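In 5 of the 40 groups of 4 mice (10 genes in 4 groups), 1 mouse stood far from the other 3 by Dixon's criterion, which flags about 1 in 20 groups by chance. In NE 3 the nuclear reader Ythdc1 had 2228 normalized counts, against 2413 to 2443 in the other NE mice. In WW 19 Mettl14 had 778.1, against 729.3 to 736.6. Wtap had 1907 in Water-Ethanol 16, against 1977 to 1987, and 1942 in NE 2, against 1840 to 1850. Fto had 6404 in Water-Ethanol 14, against 6010 to 6058.

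For Ythdf3 every Water-Ethanol mouse was below every WW mouse and every NE mouse above every NW mouse, with an interaction of 0.36 on the log2 scale. This did not pass the test of the difference (adjusted p 0.577 in edgeR, 0.126 to 1.00 over the alternatives). The pattern rests on the WW and NW values that chose the gene, which push the interaction upward, so its p decides nothing for Ythdf3. With the GC content offset the Water-Ethanol and WW mice overlapped.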

How the results depend on the processing

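No paired analysis was possible because each mouse has its own number and the groups share none. The count of members called with ethanol, 1 in the main analysis, was 0 with no filter on low counts (adjusted p of Alkbh5 0.069 in edgeR), with the GC content and length offset (0.0534) and with NW 7, NW 8 and NW 10 left out (0.434), and 0 to 1 when 1 mouse was left out. The call was lost without WW 19, WW 20 or WW 21 (adjusted p 0.0869, 0.0784 and 0.0761 in edgeR), Water-Ethanol 13, Water-Ethanol 14, Water-Ethanol 15 or Water-Ethanol 16 (0.0636, 0.0635, 0.0931 and 0.0777), NW 7 or NW 8 (0.0604 and 0.102), and NE 2, NE 3 or NE 4 (0.096, 0.0614 and 0.0888). It was made with RLE size factors, DESeq2 (adjusted p 0.0196), limma on FPKM, the GC content offset and Rn45s and Lars2 removed. Ythdf3 in NW against WW, -0.39 in the main analysis, was -0.24 with the GC content offset, -0.23 with GC content and length, and -0.26 without the 3 NW libraries; in NE against WW it was -0.054 with the GC content offset and -0.068 with length added. The counts for Water-Ethanol against WW, NE against NW and the interaction were 0 under every alternative run.

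Signs changed in results that did not pass the test. Without the 3 NW libraries the pooled ethanol log2 fold change was -0.034 in Ythdf2, -0.0079 in Ythdf3 and 0.046 in Mettl3, Alkbh5 was -0.012 in NE against NW, and its interaction was -0.11. On log2(FPKM + 1) and log2(FPKM + 0.1) Wtap was 0.046 and 0.048 pooled, 0.040 and 0.041 in Water-Ethanol against WW, and 0.053 and 0.055 in NE against NW; in Water-Ethanol against WW it was 0.018 with the GC content offset and 0.013 with length added. Leaving out 1 mouse gave -0.032 to 0.0022 for Ythdf1 pooled over nicotine and -0.019 to 0.057 for the Alkbh5 interaction. The cause of these changes was not tested. Leaving out the 3 NW libraries and removing Rn45s and Lars2 were chosen after seeing the data, and the first leaves 1 NW mouse, assumed to vary like the others.

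With 4 mice a group, standard errors of 0.03 to 0.07 on the log2 scale limit what can be seen between 2 groups. Ethanol and nicotine intake per mouse were not used here. RNA levels do not measure m6A or protein. The GC content offset uses 1 transcript per gene.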
